A study of Mus musculus with 12 samples.

Results

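Lymph node homing and adhesion molecules were examined in OT-I CD8+ T cells as a set of 9 genes, chosen by their symbols in the gene tables out of 55536 annotated genes. They were Ccr7, S1pr1, Cd44, Cd69, Itga4, Itgb1, Itgb7, Itgae and Itgal, and all 9 were detected in every library and passed the filter on low counts, as did 18817 genes in all. OT-I Tg C57BL/6J mice carry a T cell receptor that recognises an ovalbumin peptide, and per the study's methods they were deficient in Rag1 or Rag2, so that this receptor is the one their T cells carry. In the Ag group (5 libraries), OT-I cells had been transferred into C57BL/6J mice that received the antigen peptide with control IgG. In the Ag+Costim group (5 libraries), recipients received the antigen with the agonist antibodies anti-OX40 and anti-41BB, which stimulate the costimulatory receptors CD134 and CD137. Cells of both groups were harvested from spleen and lymph nodes, after 4 days per the labels, and sorted as CD8+ cells that bore the congenic marker CD45.1 and the 2 transgenic receptor chains. The Naive group (2 libraries) came from OT-I mice that were neither transferred nor immunized, so that every contrast with Naive also holds the transfer itself. None of the 9 genes encodes a protein used in the sort. Nothing in the labels says that libraries of a group came from separate animals, so the p-values measure the spread between these libraries.

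A naive T cell enters a lymph node from blood by rolling on the vessel wall, sensing chemokine through CCR7 and stopping through LFA-1, the integrin of the Itgal and Itgb2 chains. It leaves again through S1PR1, a receptor for the sphingosine 1-phosphate of lymph, and the CD69 protein binds S1PR1 and removes it from the surface. Activated T cells display CD44, which binds hyaluronan, and integrins of the Itga4 chain, which pairs either with Itgb1 to bind VCAM-1 or with Itgb7 to bind MAdCAM-1 in gut vessels, while Itgae pairs with Itgb7 to bind E-cadherin of epithelia.

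The genes fell into several patterns over the 3 groups (the plot of the genes by library). The chemokine receptor gene Ccr7 and Cd69 fell from Naive to Ag and fell again from Ag to Ag+Costim. S1pr1 and Itgae fell from Naive to Ag and did not pass the test between Ag and Ag+Costim. Itgb1 and Cd44 rose at both steps. Itga4 and Itgal rose from Ag to Ag+Costim, by 2.42-fold and 2.1-fold. Itgal was also lower in Ag than in Naive, a call that did not hold under all alternatives. Itgb7 rose by 1.22-fold at that step, a difference that passed the threshold narrowly.

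**Figure D1:**
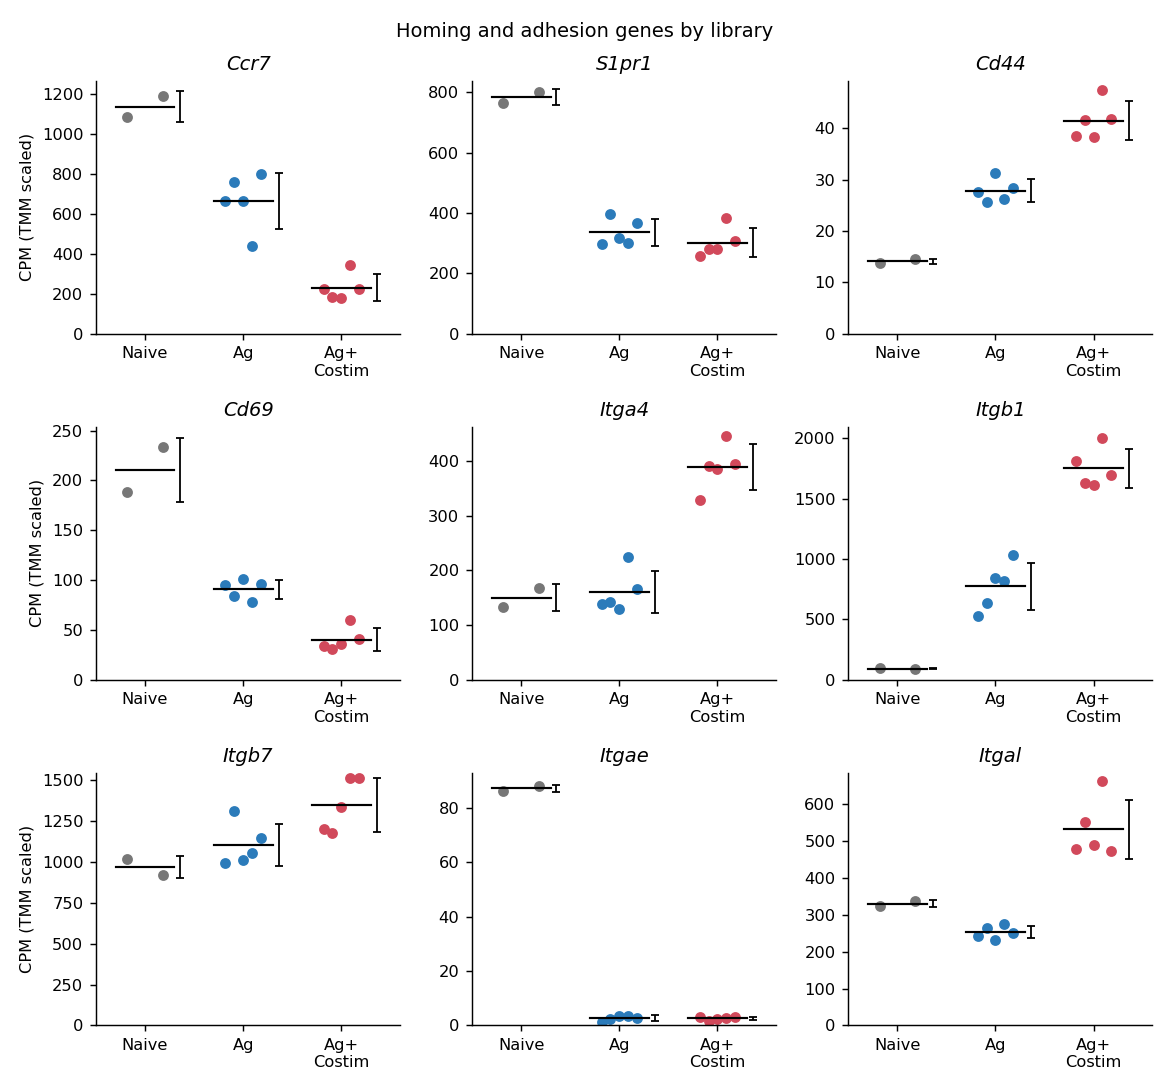
Expression of the 9 genes in CPM (counts scaled to TMM library size; linear axes from 0) in each library of Naive (grey, n = 2), Ag (blue, n = 5) and Ag+Costim (red, n = 5); horizontal lines are means and bars are SD. Ccr7 and Cd69 step down and Itgb1 and Cd44 step up from group to group, and Itgae lies between 1.12 and 3.59 CPM in all 10 transferred libraries against 86.4 and 88.3 in Naive.

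In GENCODE vM21 on GRCm38 (mm10), the build of the files, the genes are Ccr7 (chr11:99144196-99155077, minus strand), S1pr1 (chr3:115710433-115715072, minus strand), Cd69 (chr6:129267325-129275436, minus strand), Cd44 (chr2:102811141-102901665, minus strand), Itga4 (chr2:79255426-79333123, plus strand), Itgal (chr7:127296260-127335138, plus strand), Itgae (chr11:73090583-73147446, plus strand), Itgb1 (chr8:128685654-128733200, plus strand) and Itgb7 (chr15:102215995-102231944, minus strand).

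Promoter sequences of 4 of the 9 genes were at hand, from RefSeq on GRCm38.p6, each running from 250 bases before to 50 bases after the start of the gene. They are those of Itga4, Cd44, Itgb1 and Itgb7, and are shown as the regulatory sequence of genes that, like Itgal, were higher in Ag+Costim than in Naive. Capitals mark matches on either strand to 4 short motifs, GGGCGG (the GC box bound by Sp-family factors), CACCC (the core that KLF-family factors bind), TGTGGT (a RUNX core) and TGANTCA (an AP-1 site), and adjoining matches run together.
Itga4 promoter, chr2:79255176-79255475, plus strand: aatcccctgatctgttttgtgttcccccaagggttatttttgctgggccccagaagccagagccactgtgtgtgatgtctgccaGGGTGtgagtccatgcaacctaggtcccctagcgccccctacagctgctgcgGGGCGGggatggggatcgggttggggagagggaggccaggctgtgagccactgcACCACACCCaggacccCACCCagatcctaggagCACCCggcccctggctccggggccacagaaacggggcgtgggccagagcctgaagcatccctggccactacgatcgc
Cd44 promoter, chr2:102901616-102901915, minus strand: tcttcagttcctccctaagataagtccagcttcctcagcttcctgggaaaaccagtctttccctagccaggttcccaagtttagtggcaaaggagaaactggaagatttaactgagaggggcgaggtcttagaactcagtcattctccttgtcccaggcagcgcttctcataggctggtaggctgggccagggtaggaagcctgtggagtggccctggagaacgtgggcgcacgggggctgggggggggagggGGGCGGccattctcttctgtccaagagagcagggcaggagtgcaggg
Itgb1 promoter, chr8:128685404-128685703, plus strand: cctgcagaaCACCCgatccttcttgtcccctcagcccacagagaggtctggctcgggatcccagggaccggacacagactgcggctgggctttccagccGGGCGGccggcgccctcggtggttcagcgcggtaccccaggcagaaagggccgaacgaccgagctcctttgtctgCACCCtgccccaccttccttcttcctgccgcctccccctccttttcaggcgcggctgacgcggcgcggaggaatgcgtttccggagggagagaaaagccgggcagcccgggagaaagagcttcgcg
Itgb7 promoter, chr15:102231886-102232185, minus strand: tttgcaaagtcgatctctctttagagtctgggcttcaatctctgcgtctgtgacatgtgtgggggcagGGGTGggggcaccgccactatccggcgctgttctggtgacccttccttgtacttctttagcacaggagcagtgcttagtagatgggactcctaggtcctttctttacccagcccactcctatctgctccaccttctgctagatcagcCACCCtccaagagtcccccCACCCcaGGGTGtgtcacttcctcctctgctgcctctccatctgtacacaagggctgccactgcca
Itga4 held 1 GC box, 4 CACCC cores and 1 RUNX core, of which the RUNX core overlaps a CACCC core. Itgb1 held 1 GC box and 2 CACCC cores, Itgb7 held 4 CACCC cores and no GC box, and Cd44 held 1 GC box and no CACCC core. The Cd44 window is set on its outermost annotated start. By the inclusion fractions (Psi) described below, that start node stood at 0.0202 in Ag and 0.0089 in Ag+Costim. The start node at chr2:102901496-102901510, outside the window, stood at 0.9055 and 0.9549. None of the 4 windows held the AP-1 letters. Among 32851 promoter windows of this length, 35.7% held the GC box, 57.5% the CACCC core, 16.8% the RUNX core and 7.81% the AP-1 site. The promoters were 56.3% (Itgb7) to 67.3% (Itgb1) G and C.

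Sequencing depth ranged from 24006053 to 49294934 counts a library, with the lowest in Ag replicate 4. Defining T cell markers were abundant in every library, and their summed level (11 of 11 measured) was 18600 to 19540 CPM in Naive, 17970 to 22340 in Ag and 8419 to 11230 in Ag+Costim. Hemoglobin and other erythroid markers (6 of 6) summed to 168 and 2312 CPM in Naive, 588 to 6718 in Ag, with the highest in Ag replicate 4, and 14.0 to 211 in Ag+Costim. B cell markers (8 of 8) summed to 1219 to 1232, 1615 to 2138 and 739 to 1399 CPM, mostly Ighm. Myeloid markers (9 of 9) summed to 132 to 241, 241 to 396 and 179 to 258 CPM, NK cell markers (3 of 3) to at most 28.9, platelet markers (4 of 4) to at most 13.5, and Cd4 with Foxp3 to at most 2.76. Of 6 endothelial and stromal markers, the defining Cdh5 and Kdr stayed at or below 0.313 CPM, and Pecam1, at 37.5 to 153 CPM, made up nearly the whole sum. Proliferation markers (6 of 6) summed to 205 to 210 CPM in Naive, 561 to 1115 in Ag and 2389 to 3182 in Ag+Costim. The part of any of these in the results below was not tested. In bulk samples, fewer cells of a type and less RNA per cell cannot be told apart. Replicates 1 and 2 of Ag and of Ag+Costim and replicate 1 of Naive carried reads of Y-linked genes (143 to 309 CPM) and the other libraries at most 3.88 CPM, so that both transferred groups hold 2 libraries with and 3 without such reads.

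Between Ag and Naive, 2 of the 9 genes were higher (Cd44 and Itgb1) and 5 were lower (Ccr7, S1pr1, Cd69, Itgae and Itgal), by edgeR's quasi-likelihood test with Benjamini-Hochberg adjustment over all genes at 0.05. Over all genes tested, 24.2% were higher and 22.5% lower, and the libraries of the groups did not overlap for 56.4%, against 7 of the 9 genes. Between Ag+Costim and Ag, 5 of the 9 were higher (Cd44, Itga4, Itgb1, Itgb7 and Itgal) and 2 lower (Ccr7 and Cd69), where 26.6% of all genes were higher and 26.5% lower. The libraries did not overlap for 6 of the 9 genes in this comparison and for 39.8% of all genes. Between Ag+Costim and Naive, 5 of the 9 were higher and 4 lower, where 26.9% of all genes were higher and 25.4% lower, and no gene of the 9 overlapped, against 66.0% of all genes that did not. The median log2 fold change of the 9 genes was -0.38, 0.29 and 0.48 in these comparisons, beside 0.02, -0.05 and -0.02 over all genes. Without Ag replicate 4, the library of lowest depth and highest erythroid level, 7, 6 and 9 of the 9 genes were called in these comparisons, in place of 7, 7 and 9. Of all genes, 9569, 10190 and 10530 were then called, in place of 8792, 9985 and 9844. With upper-quartile scaling, 39.0% of the genes called between Ag+Costim and Ag were higher, beside 50.1% with TMM scaling. The comparisons share libraries, so that they are not independent of each other. Longer transcripts were lower in Ag than in either other group: the median log2 fold change over genes in 4 classes of length, shortest to longest, ran from 0.36 to -0.55 for Ag against Naive and from -0.36 to 0.36 for Ag+Costim against Ag. Log2 fold changes of the 9 genes without this trend are given where a call changed or a called log2 value changed over 1.5-fold. Below that limit, Itga4 moved from 1.28 to 0.92 and Itgb1 from 1.18 to 0.84 in Ag+Costim against Ag.

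**Figure D2:**
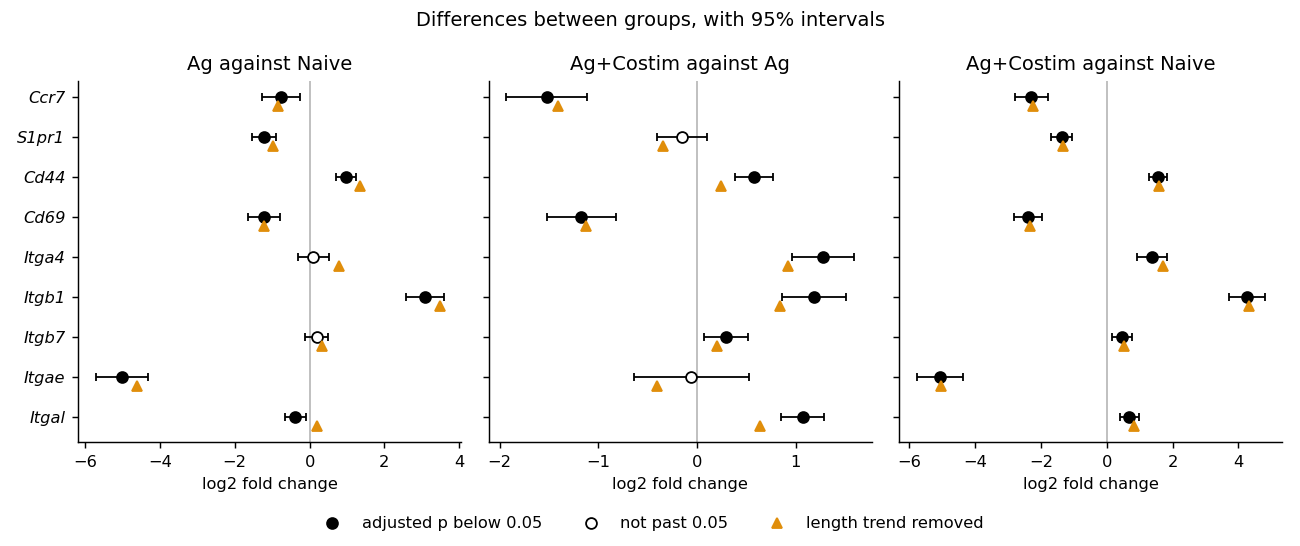
Log2 fold change of each of the 9 genes in the 3 comparisons, by edgeR; circles are estimates with 95% intervals, filled where the adjusted p is below 0.05, and triangles are estimates with the trend on transcript length removed. Itgae against Naive (-5.03 and -5.08) and Itgb1 against Naive (3.08 and 4.26) lie farthest from 0, and Itgal in Ag against Naive is the filled circle whose triangle lies on the other side of 0.

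Ccr7, the receptor that draws T cells into lymph nodes along CCL19 and CCL21, stood at 1083 and 1191 CPM in the Naive libraries. It stood at 666, 762, 664, 439 and 801 CPM in Ag replicates 1 to 5 and at 226, 186, 178, 342 and 225 CPM in Ag+Costim replicates 1 to 5. The 3 groups did not overlap, with Ag replicate 4 the lowest of its group and Ag+Costim replicate 4 the highest of its own. The log2 fold change was -0.77 ± 0.24 (SE) for Ag against Naive (adjusted p = 0.0170, edgeR) and -1.53 ± 0.19 for Ag+Costim against Ag (adjusted p = 1.5e-05, edgeR), which is 2.88-fold lower. With 1 of the 2 Naive libraries left out, the lone one is assumed to vary like the libraries of the other groups. The first of these calls was then lost without Naive replicate 1 (-0.84, adjusted p = 0.0561, edgeR) and without Naive replicate 2 (-0.70, adjusted p = 0.116, edgeR). Within the libraries with Y-linked reads the Ag+Costim against Ag value was -1.79, and within those without it was -1.35.

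S1pr1, the receptor for exit from lymph nodes, stood at 764 and 801 CPM in Naive. It stood at 297, 397, 317, 302 and 367 CPM in Ag and at 257, 281, 281, 384 and 306 CPM in Ag+Costim. Both transferred groups lay below Naive and overlapped each other. S1pr1 fell by 1.22 ± 0.15 (SE) on the log2 scale from Naive to Ag (adjusted p = 1.9e-05, edgeR). The difference between Ag+Costim and Ag was -0.15, with a 95% interval of -0.41 to 0.10 (adjusted p = 0.292, edgeR). With the length trend removed it was -0.34 and passed (adjusted p = 0.0127, edgeR), as it did with upper-quartile scaling (-0.35, adjusted p = 0.0210, edgeR), so that a small fall was called under those settings and not under the others.

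Cd69, which encodes the antagonist of S1PR1 and is induced early in activation, stood at 188 and 234 CPM in Naive. It stood at 94.6, 84.2, 100.6, 77.7 and 95.9 CPM in Ag and at 33.8, 30.7, 36, 59.9 and 40.3 CPM in Ag+Costim. The 3 groups did not overlap and their order was that of Ccr7. Cd69 fell by 1.22 ± 0.20 (SE) on the log2 scale from Naive to Ag (adjusted p = 0.000250, edgeR) and by 1.18 ± 0.16 from Ag to Ag+Costim (adjusted p = 3.7e-05, edgeR). Ag+Costim libraries thus held 5.25-fold less Cd69 than Naive ones (log2 fold change -2.39).

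Cd44, the hyaluronan receptor used as a marker of antigen-experienced T cells, stood at 13.8 and 14.5 CPM in Naive. It stood at 27.5, 25.7, 31.4, 26.1 and 28.4 CPM in Ag and at 38.5, 41.5, 38.3, 47.5 and 41.7 CPM in Ag+Costim. No 2 groups overlapped. Cd44 was 1.97-fold higher in Ag than in Naive (log2 fold change 0.98 ± 0.13, SE) and 1.49-fold higher in Ag+Costim than in Ag (0.58 ± 0.09, adjusted p = 0.000119, edgeR). With the length trend removed the latter was 0.24 (adjusted p = 0.0431, edgeR).

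Of the integrin alpha chains, Itga4 stood at 132 and 168 CPM in Naive. It stood at 139, 142, 130, 225 and 166 CPM in Ag and at 328, 390, 385, 446 and 394 CPM in Ag+Costim. Naive and Ag overlapped, and every Ag+Costim library lay above both. The log2 fold change of Ag+Costim against Ag was 1.28 ± 0.15 (SE, adjusted p = 7.2e-06, edgeR) and was 1.43 without Ag replicate 4, which was highest in its group. Ag against Naive gave 0.09, with a 95% interval of -0.32 to 0.51 (adjusted p = 0.718, edgeR), but 0.80 with the length trend removed (adjusted p = 0.00109, edgeR). An exon of Itga4 overlaps one of Cerkl on the opposite strand, and no source used here states that counting used strand, so that reads of that stretch cannot be told apart.

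Itgal, the alpha chain of LFA-1, stood at 324 and 337 CPM in Naive. It stood at 243, 263, 233, 276 and 252 CPM in Ag and at 478, 553, 490, 664 and 474 CPM in Ag+Costim. Ag lay below Naive and Ag+Costim above both, with no overlap. The log2 fold change of Ag+Costim against Ag was 1.07 ± 0.10 (SE, adjusted p = 1.2e-06, edgeR), and 0.64 with the length trend removed (adjusted p = 3.8e-05, edgeR). The fall of 0.38 from Naive to Ag (adjusted p = 0.0259, edgeR) was not called without Naive replicate 1 (-0.41, adjusted p = 0.0939, edgeR) or Naive replicate 2 (-0.36, adjusted p = 0.154, edgeR), and with the length trend removed it became 0.19 (adjusted p = 0.214, edgeR).

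Itgae, which encodes the CD103 chain, stood at 86.4 and 88.3 CPM in Naive. It stood at 1.12, 2.46, 3.59, 3.52 and 2.79 CPM in Ag and at 2.99, 1.64, 2.21, 2.89 and 3.17 CPM in Ag+Costim. All 10 transferred libraries lay far below Naive and overlapped each other. Itgae was 32.6-fold lower in Ag (log2 fold change -5.03 ± 0.32, SE, adjusted p = 1.3e-07, edgeR) and 33.9-fold lower in Ag+Costim than in Naive. Between Ag+Costim and Ag the log2 fold change was -0.06 with a 95% interval of -0.64 to 0.52 (adjusted p = 0.877, edgeR), and its sign turned when single libraries were left out (0.08 without Ag replicate 3, 0.05 without Ag replicate 4 and 0.07 without Ag+Costim replicate 2).

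Of the integrin beta chains, Itgb1 stood at 95.6 and 87.0 CPM in Naive. It stood at 531, 638, 845, 819 and 1030 CPM in Ag and at 1814, 1632, 1615, 2000.4 and 1698 CPM in Ag+Costim. The groups were far apart and no library of one reached another. Itgb1 rose 8.46-fold from Naive to Ag (log2 fold change 3.08 ± 0.24, SE, adjusted p = 4.8e-07, edgeR), a further 2.27-fold to Ag+Costim (1.18 ± 0.15, adjusted p = 1.8e-05, edgeR), and 19.2-fold from Naive to Ag+Costim. Within Ag, the 2 libraries with Y-linked reads were the lowest, 0.62 on the log2 scale below the other 3 (adjusted p = 0.475, edgeR). The Ag+Costim against Ag value was 1.56 in libraries with and 0.98 in libraries without Y-linked reads, and their difference of 0.58 ± 0.22 (SE) did not pass the adjustment over all genes (adjusted p = 0.980, edgeR).

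Itgb7, the beta chain shared by the gut and epithelial integrins, stood at 1016 and 923 CPM in Naive. It stood at 996, 1312, 1011, 1051 and 1147 CPM in Ag and at 1200.2, 1178, 1335, 1515 and 1515 CPM in Ag+Costim. Ag overlapped both other groups. The log2 fold change was 0.29 ± 0.10 (SE) for Ag+Costim against Ag (adjusted p = 0.0305, edgeR), 0.48 for Ag+Costim against Naive (adjusted p = 0.0116, edgeR) and 0.19 for Ag against Naive (adjusted p = 0.289, edgeR), which was called with the length trend removed (0.33, adjusted p = 0.0457, edgeR). The first call was lost with the length trend removed (0.20), with upper-quartile scaling (0.10), with limma on FPKM (0.23) and without each of 6 single libraries (0.24 to 0.29): Ag replicates 1, 3 and 4 and Ag+Costim replicates 3, 4 and 5. The call against Naive was lost without Naive replicate 2 (0.40), with upper-quartile scaling (0.33) and with limma on FPKM (0.23). More calls of Itgb7 changed under the alternatives tried than of any other of the 9 genes. Its Ag+Costim against Ag value was 0.04 within the libraries with Y-linked reads and 0.44 within those without.

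Levels of different genes can be compared only per transcript length, so gene FPKM (fragments scaled by transcript length and library size) was used. It counts every transcript of a gene, also those that are not protein-coding. The protein-coding form of Itga4 held 25.8% of its length-scaled transcript counts in Naive, 43.0% in Ag and 36.8% in Ag+Costim. In Naive, mean FPKM ran in the order Ccr7 (635), Itgb7 (412), S1pr1 (284), Cd69 (125), Itgal (73.0), Itga4 (38.8), Itgb1 (26.6), Itgae (25.1) and Cd44 (4.68), and the libraries of neighbours overlapped only for Itgb1 and Itgae. In Ag the order began with Itgb7 (413), Ccr7 (330) and Itgb1 (200.5), where Itgb7 overlapped Ccr7 and Ccr7 overlapped Itgb1. In Ag+Costim, Itgb7 (484 ± 57.2, SD) and Itgb1 (444 ± 43.2) stood first and overlapped, and Ccr7 (112) stood next. Behind them Ccr7, Itgal (102), S1pr1 (94.5) and Itga4 (73.0) each overlapped the next in order. Cd69 (20.7), Cd44 (12.2) and Itgae (0.637) followed without overlap.

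Ratios between partner genes were formed in each library as log2 of FPKM with a pseudocount of 0.1, and 4 were compared between Ag+Costim and Ag with exact permutation tests (two-sided, Benjamini-Hochberg adjusted over the 4). The Itgb7 to Itgb1 ratio, of the beta chains that share Itga4, was 3.95 ± 0.03 (SD) in Naive, 1.07 ± 0.40 in Ag and 0.12 ± 0.17 in Ag+Costim. Itgb7 thus exceeded Itgb1 in all Naive and Ag libraries, and in Ag+Costim both were near equal, with 1 library below 0. The ratio was 0.95 lower in Ag+Costim than in Ag (exact p = 0.00794, adjusted p = 0.0106, log2 difference -0.95), and the 5 libraries of each group did not overlap. Between these groups Itgb1 rose by 1.18 and Itgb7 by 0.29 on the log2 scale, so that this difference mainly repeats the rise of Itgb1. The Itgae to Itga4 ratio, of the alpha chains that can pair with Itgb7, was -0.61 in Naive, -5.24 ± 0.54 in Ag and -6.66 ± 0.38 in Ag+Costim. The groups did not overlap, with the highest Ag+Costim library at -6.15 and the lowest Ag library at -5.98. Its difference was -1.41 (exact p = 0.00794, adjusted p = 0.0106). Itgae stood at only 0.28 to 0.94 FPKM in Ag and 0.40 to 0.79 in Ag+Costim and was not called between them. The difference in this ratio thus mainly repeats the rise of Itga4, whose FPKM also counts transcripts that are not protein-coding. The Itgal to Itgb2 ratio, of the LFA-1 chains, was -1.45 in Naive, -2.16 ± 0.18 in Ag and -1.60 ± 0.25 in Ag+Costim, a difference of 0.56 (exact p = 0.0159, adjusted p = 0.0159) with the lowest Ag+Costim library below the highest of Ag. The S1pr1 to Cd69 ratio was 1.19 in Naive, 1.15 ± 0.21 in Ag and 2.21 ± 0.17 in Ag+Costim, a difference of 1.06 (exact p = 0.00794, adjusted p = 0.0106) with no overlap. S1pr1 was not called between these groups in the main fit, so that the difference mainly repeats the fall of Cd69. The smallest p that 5 against 5 libraries allow is 0.00794, and no test of the ratios was made against Naive, which has 2 libraries. With the trend on length removed, an alternative chosen after seeing the data, the differences were -0.67, -1.27, 0.26 and 0.81 in the order given, of which that of Itgal to Itgb2 moved most (adjusted p = 0.0476, exact permutation).

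**Figure D3:**
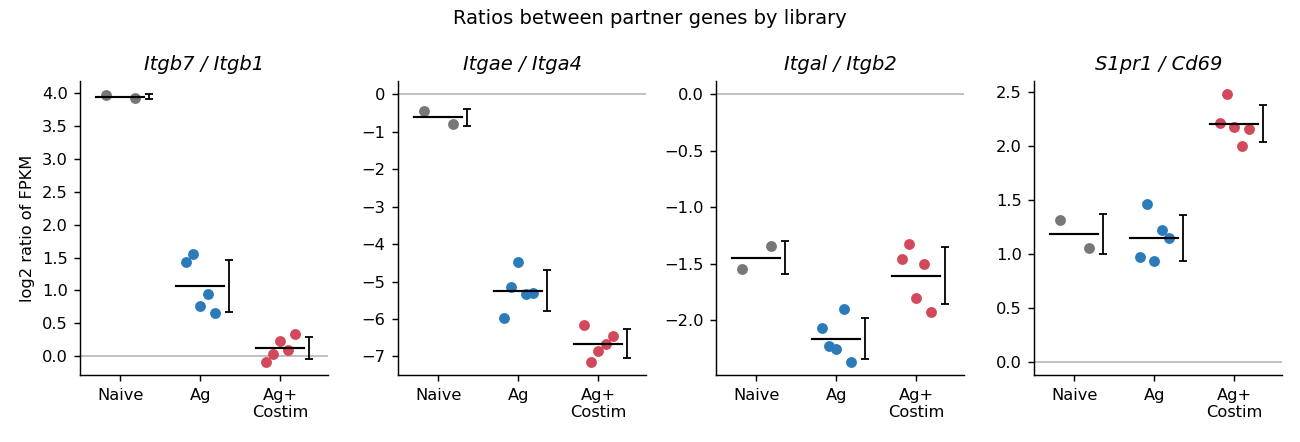
Log2 ratio of gene FPKM between partner genes in each library of Naive (n = 2), Ag (n = 5) and Ag+Costim (n = 5), with means (lines) and SD (bars); a ratio of 0 means equal FPKM. Itgb7 to Itgb1 falls from 3.95 in Naive to 0.12 in Ag+Costim, and S1pr1 to Cd69 is higher in Ag+Costim (2.0 to 2.48) than in all other libraries (0.93 to 1.46).

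Transcript structure was read from length-scaled transcript counts and from Psi, which gives for a node (a stretch of exon) what fraction of its reads include it and of which the files give 1 value per group. Of 142 nodes in 8 of the 9 genes, 10 differed by 0.05 or more between Ag+Costim and Ag, where 19.2% of all 115403 nodes did. These nodes lay in Itgal (4 of 40), Cd44 (3 of 30), Cd69 (2 of 7) and Itgae (1 of 11). Ccr7 (1 node), Itga4 (26), Itgb1 (14) and Itgb7 (13) had none, and S1pr1 has no node in the table. With 1 value per group no error is known, so that these are descriptions.

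At the 3′ end of Cd69, Psi of the proximal end node was 0.176 in Ag and 0.313 in Ag+Costim, and that of the distal node 0.824 and 0.688. In Cd44, Psi of the end node of 1573 bases was 0.039 in Ag and 0.115 in Ag+Costim, and that of the node of 10 bases before it 0.737 and 0.679. In Itgal, Psi of the proximal end node was 0.129 in Ag and 0.205 in Ag+Costim, and that of the distal one 0.631 and 0.565. A further Itgal end node of 1 base, directly after the distal one, stood at 0.240 and 0.230 and did not differ by 0.05. The other 4 nodes that differed by 0.05 or more were start nodes of Cd44 (0.085 and 0.035) and Itgal (0.348 and 0.242, and 0.574 and 0.624) and a core exon of Itgae (0.766 and 0.863). The last 30 bases of the end nodes that differed by 0.05 or more follow, from GENCODE vM21 transcripts on GRCm38, with the polyadenylation signals AATAAA or ATTAAA in capitals where found.
Cd69 proximal end, chr6:129268259-129268288, minus strand: ctgggtctgcagcaagccctccagatgacg
Cd69 distal end, chr6:129267325-129267354, minus strand: tatgtgaaAATAAAagaatagataaatggt
Cd44 short end node, chr2:102814120-102814149, minus strand: tgaagattggggtgtagtgcctacgccatt
Cd44 longer end node, chr2:102812547-102812576, minus strand: gtttagtaggtttttttttccAATAAAaac
Itgal proximal end, chr7:127333699-127333728, plus strand: tccttcactagtcattgctgttcctagtcc
Itgal distal end, chr7:127335108-127335137, plus strand: ttttctgcAATAAAgcaccctaaagaaagc
The distal ends of Cd69 and Itgal and the longer end of Cd44 each held AATAAA within these 30 bases. The proximal ends of Cd69 and Itgal and the short end of Cd44 held neither signal in this window.

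By Psi, the variable exons of Cd44, which lengthen its stem, were rarely included. Of its 17 core exon nodes, 10 had Psi of 0.037 to 0.070 in Ag and 0.027 to 0.079 in Ag+Costim. The other 7 nodes had Psi of 0.970 to 0.982 and 0.986 to 0.989. Cd44-203, a protein-coding transcript of 2848 bases, held 72.2% ± 4.1 (SD) of Cd44 in Ag and 78.0% ± 2.9 in Ag+Costim, a difference of 5.83 percentage points (exact permutation p = 0.0317, adjusted p = 0.0423 over 4 genes). That call was lost without Ag replicates 3, 4 or 5 or any single Ag+Costim library (4.35 to 6.39 points). Cd44-201, the longest form, was at 0% in Ag+Costim replicate 2, where Cd44-207 took 16.3%, and at 14.7% to 27.8% in the other transferred libraries, in which Cd44-207 was at 0%. Shares and Psi of Cd44 do not match. By its length of 5614 bases, Cd44-201 takes in the variable exons, yet its mean share was 22.4% in Ag and 13.6% in Ag+Costim. Cd44-203 by its length ends with the node of 1573 bases, whose Psi was only 0.039 and 0.115. Which source is closer was not tested, so that the Cd44 shares hold only as the deposited transcript counts assign them.

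Itgal-202 held 90.3% ± 5.3 (SD) of Itgal in Ag, 70.2% ± 9.1 in Ag+Costim and 73.8% ± 4.8 in Naive. Its share was lower in Ag+Costim than in Ag (difference -20.0 points, exact permutation p = 0.00794, adjusted p = 0.0317), with no overlap, and the remainder lay mostly in Itgal-205 (0.427% to 26.5% over all libraries) and Itgal-201 (1.82% to 27.7%). Itga4-201, the 1 protein-coding form of Itga4, held 43.0% ± 2.6 in Ag, 36.8% ± 2.3 in Ag+Costim and 25.8% ± 0.8 in Naive. The difference between Ag+Costim and Ag was -6.19 points (exact permutation p = 0.0159, adjusted p = 0.0317). In Naive, the processed transcript Itga4-205 held 48.1% of Itga4, against 16.5% in Ag and 20.1% in Ag+Costim. Itgae-201 held 87.3% ± 11.7 in Ag and 65.3% ± 21.4 in Ag+Costim (exact permutation p = 0.0952), at levels of under 4 CPM. Ccr7 and S1pr1 have 1 transcript each, and the leading transcripts of Cd69, Itgb1 and Itgb7 held a mean of 89.4%, 96.4% and 97.9%.

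**Figure D4:**
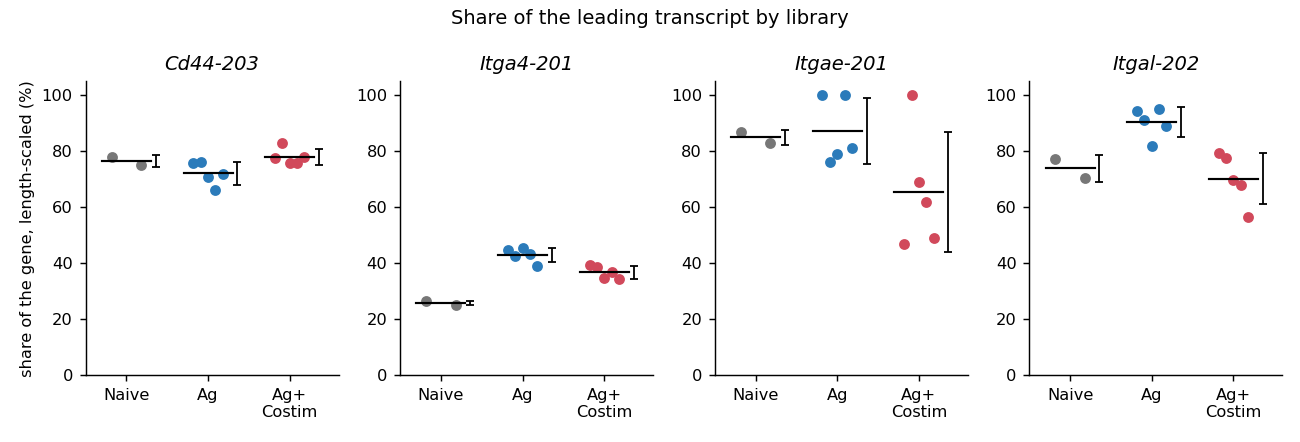
Share of the leading transcript among all length-scaled transcript counts of its gene, in percent, in each library of Naive (n = 2), Ag (n = 5) and Ag+Costim (n = 5), with means (lines) and SD (bars). Itgal-202 lies at 82.0% to 95.1% in Ag and 56.5% to 79.5% in Ag+Costim, and Itgae-201 varies most among Ag+Costim libraries.

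The genes whose pattern was most like each of the 9 were ranked over the 12 libraries by the root mean square difference of centred log2 CPM, among 9252 genes, as a description. Slc17a9, Foxp1 and Hbp1 were nearest to Ccr7 (0.17 to 0.20), Orai2, Rabggta and Tagap to S1pr1 (0.10 to 0.12), and Klhl24, Retreg1 and Smox to Cd69 (0.15 to 0.18). Adprh, Fdft1 and Ap1s2 were nearest to Cd44 (0.11 to 0.14) and Atp8b4, Lmf2 and Apaf1 to Itga4 (0.17 to 0.20). Lasp1, Unc13d and Tbcd were nearest to Itgal (0.11 to 0.14) and Rab3d, Tmem129 and Ctsc to Itgb7 (0.10 to 0.11). Klrc1, Irf8 and Slamf7 came nearest to Itgb1 (0.26 to 0.31). C230085N15Rik, Tmem87a and Actn2 came nearest to Itgae (0.63 to 0.74). Itgae had a mean log2 CPM of 2.20, and only genes above 3 were compared, so that genes at its level were left out.

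Other genes of homing and adhesion were read from 7 lists of 107 genes, of which 97 passed the filter. In Ag+Costim against Ag, 41 were higher, 24 lower and 32 did not pass, with a median log2 fold change of 0.26. In Ag against Naive, 24 were higher, 27 lower and 46 did not pass, and in Ag+Costim against Naive, 35 were higher, 22 lower and 40 did not pass (the shares over all genes are given above). Among selectin ligand enzymes, the sulfotransferase gene Chst2 had means of 0.156 CPM in Naive, 31.3 in Ag and 10.3 in Ag+Costim. The fucosyltransferase gene Fut7 had means of 3.60, 41.1 and 27.8 CPM, and Gcnt1 of 0.330, 7.22 and 7.44 CPM. Chst2 and Fut7 rose from Naive to Ag and fell from Ag to Ag+Costim (log2 fold changes -1.60 and -0.56), and Gcnt1 was called against Naive in both groups.

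Of 12 transcription factors of homing genes, 7 rose and 4 fell from Ag to Ag+Costim, beside 26.6% of all genes higher and 26.5% lower. Foxo1, an activator of Klf2 and Ccr7, was 4.15-fold lower in Ag+Costim than in Ag, at 48.4 to 60.2 CPM against 185 to 260 CPM. It stood at 167 and 153 CPM in Naive and was higher in Ag than in Naive (log2 fold change 0.50, adjusted p = 0.00961, edgeR), where Ccr7 and Klf2 were lower. Klf2, which activates S1pr1, stood at 579 and 587 CPM in Naive, 368 to 447 in Ag and 233 to 315 in Ag+Costim. Its log2 fold change was -0.48 for Ag against Naive and -0.60 for Ag+Costim against Ag (adjusted p = 8.5e-05, edgeR). The largest changes in the list were Prdm1, the gene of the repressor Blimp-1 (4.24), Smad3 (3.01) and Id3 (-2.29). Tbx21 and Eomes, which encode T-box factors of effector cells, were 3.53 and 2.58 higher in Ag+Costim than in Naive on the log2 scale.

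Of 17 other integrin chains tested, 7 rose and 4 fell from Ag to Ag+Costim, beside 26.6% of all genes higher and 26.5% lower. Itgax, Itgam and Itgb3 changed most among those above a mean log2 CPM of 1 (2.58, 2.40 and 1.86). Itgax and Itgam are also genes of myeloid cells, and the libraries of Ag and Ag+Costim overlapped for Itgam. Of the 9 myeloid markers, Csf1r (1.5 to 8.14 CPM in Ag, 5.25 to 33.5 in Ag+Costim) and Adgre1 (0.916 to 3.05 and 2.06 to 8.74) were called higher in Ag+Costim, Cst3 and Tyrobp were called lower, and the other 5 did not pass. Their part in the values of Itgax and Itgam was not tested. Itgb2, the beta chain of LFA-1, stood at 539 and 520 CPM in Naive, 581 to 736 in Ag and 757 to 1147 in Ag+Costim, 1.46-fold higher than in Ag (log2 fold change 0.55, adjusted p = 0.00151, edgeR). In the same comparison, of 18 genes that act on integrin activation, in either direction, 9 were higher and 4 lower. They were led by Vcl, Rap1gap2 and Tln1, the talin gene (3.50, 2.49 and 1.66). Of 13 genes of the S1P axis, 6 were higher and 1 lower, led by S1pr4, another S1P receptor gene, which fell by 2.17 from Naive to Ag and was 1.68 higher in Ag+Costim than in Ag, all on the log2 scale. Of 10 genes of the CCR7 axis, 5 were higher and 2 lower, led by Arrb1 (-1.98), Cxcr4 (1.88) and Rgs16 (1.41). Of 16 adhesion ligands and other adhesion receptors, 5 were higher and 6 lower. Among those above a mean log2 CPM of 1, Cd9 (-1.19), Vcam1 (1.16) and Cd96 (-0.96) changed most. Alcam had means of 0.166 CPM in Naive, 15.5 in Ag and 15.9 in Ag+Costim.

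**Figure D5:**
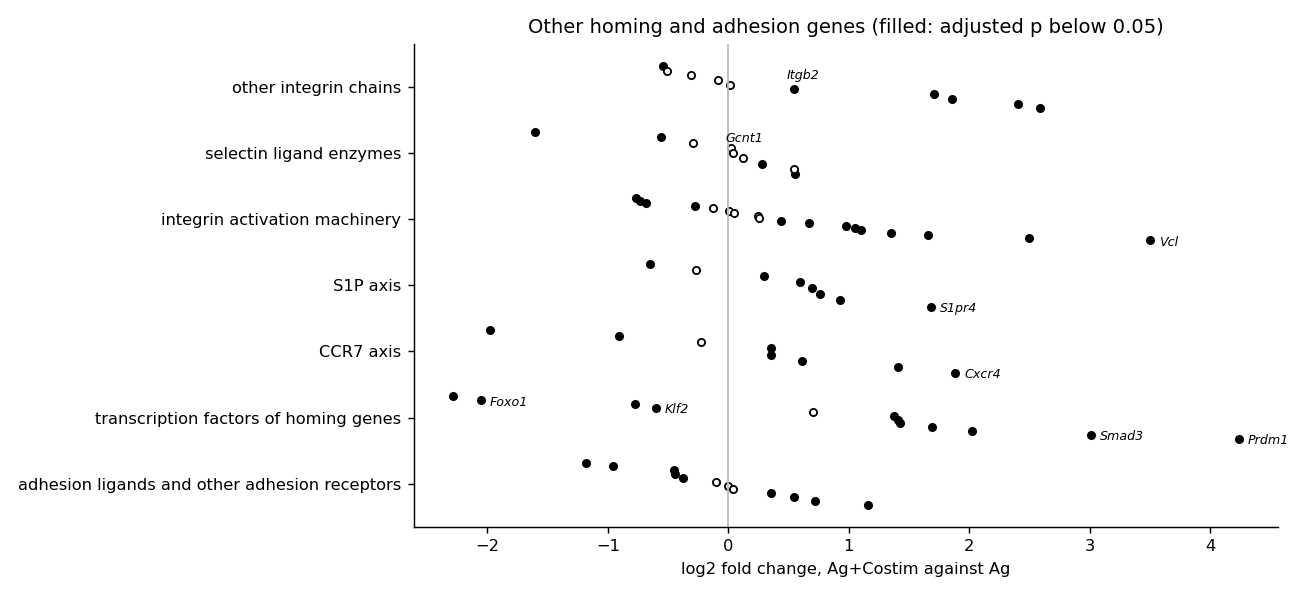
Log2 fold change of Ag+Costim against Ag for 77 genes of the 7 other homing and adhesion lists with a mean log2 CPM above 1, each point a gene, filled where the adjusted p is below 0.05 by edgeR (38 higher, 19 lower). Foxo1 and Klf2 lie to the left of 0 and Prdm1, Vcl, Smad3 and Cxcr4 to the right. Of all genes tested, 26.6% were higher and 26.5% lower in Ag+Costim against Ag.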

How the data were processed

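RNA-seq libraries (SMART-Seq v4 with Nextera XT, single-end reads of 100 bases) of 12 samples were used. The authors aligned reads to mm10 and, per the submitters' processing notes, used HISAT2 2.1.0, SAMtools 1.9, StringTie 2.1.0, R 4.0.5 and DESeq2 1.30.1. The deposited gene and transcript counts come from StringTie and are not normalized, the deposited FPKM values are scaled by the authors for length and library size, and the deposited Psi fractions come from Whippet, 1 per group. Other columns of that table hold the authors' own comparison and were not used. Gene entries (81881) were matched to GENCODE vM21 and 26345 entries with a bare number, 0.0508% to 0.121% of counts, were left out. Gene FPKM sums the entries of a name.

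Counts of all 12 libraries were fitted with edgeR 4.0.16 (R 4.3.3) with TMM scaling, filterByExpr and the robust two-sided quasi-likelihood test, and p-values were adjusted by Benjamini-Hochberg over 18817 genes at 0.05. CPM of genes uses TMM library sizes, and CPM of markers uses totals. Tested on simulated data for Ag+Costim against Ag (18817 genes, of which 200 were shifted by 1 on the log2 scale), the fit recovered 136 (68%) and called 9 unchanged genes. The shifts went up and down in equal number, and no length trend was simulated. The check thus does not cover data like these, in which 9985 genes were called in that comparison. Ratios and transcript shares were compared with exact permutation tests. The trend on length was removed with a loess offset per library (span 0.4). Alternatives used DESeq2 1.42.0, limma 3.58.1 on log2(FPKM + 1), other scalings, no filter and each library left out. Ratios, shares and plots were made in Python 3.11.15 with pandas 2.3.3, numpy 2.4.6 and matplotlib 3.10.9.

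The 9 genes and the lists were chosen with earlier results of these data known. Text names the 9 genes, the 3 genes most like each among those with a mean log2 CPM above 3, Klf2, Foxo1 and Itgb2, and, from the called genes of each list with a mean log2 CPM above 1, the leading ones by size of change, at most 3 a comparison. A gene that this rule names is not reported here. No value of the 9 genes, the ratios or the shares stood apart from its group by Dixon's test (34 groups of 5, critical value 0.71). The split by Y-linked reads and the ratios without the length trend were added after the data were seen.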

Additional observations from a re-analysis of the deposited data

How the results depend on the processing

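Each of the 9 genes was refitted under 21 alternatives in each comparison, 189 values each. For Ag against Naive 181 kept their call or lack of one, for Ag+Costim against Ag 177 and for Ag+Costim against Naive 185. Among these, uncalled values changed sign 5 times for Ag against Naive (Itga4 in 4 alternatives, -0.44 to -0.06, and Itgb7 in 1), 3 times for Ag+Costim against Ag (Itgae) and 0 times for Ag+Costim against Naive. Those whose call changed are given beside the genes, except for the replicate block. Itgal in Ag against Naive turned to 0.19 with the length trend removed. With single libraries left out, 5713 (without Naive replicate 2) to 9569 (without Ag replicate 4) genes in all were called in Ag against Naive, beside 8792. Upper-quartile scaling shifted the median of all genes to -0.24 (Ag+Costim against Ag) and -0.18 (Ag+Costim against Naive, 43.9% of calls higher beside 51.5%). With limma on FPKM 40.3% of calls were higher in Ag against Naive, beside 51.9%, and 38.8% in Ag+Costim against Naive.

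The groups share replicate numbers, but same-numbered libraries of Ag and Ag+Costim hardly deviated together (correlations 0.095, 0.066, 0.045, 0.016 and 0.019, with 3 of 5 closest to their own number), so the numbers were not taken as pairs. With a replicate block, 6, 6 and 8 of the 9 genes were called in place of 7, 7 and 9: Ccr7 in Ag against Naive (-0.79) and Itgb7 against Ag (0.29) and Naive (0.42) lost the call. Of all genes, 7915, 9736 and 9078 were called with the block, in place of 8792, 9985 and 9844. With the block, the ratios (-0.95, -1.41, 0.56 and 1.06) had an adjusted exact p of 0.0625, the smallest that 5 pairs allow, and the shares of Cd44 (5.83), Itga4 (-6.19) and Itgal (-20.0) one of 0.0833. Those tests cannot pass the threshold. The difference in the share of Cd44-203 ranged from 4.35 to 6.85 points with single libraries left out, and the difference in that of Itgae-201 from -30.6 to -17.3 points, passing at -30.6 without Ag+Costim replicate 2 (exact permutation p = 0.0159).

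A term for Y-linked reads, chosen after seeing the data, changed no call of the 9 genes. Their Ag+Costim against Ag calls numbered 6 within libraries with such reads and 7 within those without, beside 6657 and 7658 of all 18817 genes. The differences between those effects did not pass for the 9 genes (adjusted p = 0.980 to 1, edgeR).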
